A study of Mus musculus with 60 samples.

Results

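The genes described here are 10 output and repressor genes of the circadian clock: the transcription factors Dbp, Tef and Hlf, the period genes Per1, Per2 and Per3, the repressors Ciart and Bhlhe41, and the nuclear receptors Nr1d1 and Nr1d2. They were taken from 18193 genes by their symbols in the array annotation, using probe sets annotated with that symbol alone. The 10 symbols matched 23 probe sets, and the brightest probe set of each gene gave its values while the others served as a check. Ciart, Per1 and Nr1d1 had 1 probe set each and so had no such check. Bhlhe41 lay at or near the lowest value of the arrays and was not tested, which left 9 of the 10 genes among the 11886 genes tested.

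Cells of most mammalian tissues carry a clock in which the proteins of Arntl (BMAL1) and Clock or Npas2 bind E-boxes and switch on their own repressors, the Per and Cry genes, so that transcript levels rise and fall over the day. Dbp, Tef, Hlf, Ciart, Nr1d1 and Nr1d2 are switched on through the same E-boxes. The proteins of Dbp, Tef and Hlf, related leucine zipper factors, then act through D-box elements, and those of Nr1d1 and Nr1d2 repress Arntl through elements that they share with the ROR receptors. In the brain, clock genes cycle in the suprachiasmatic nucleus and also in the cortex, and light, feeding and activity can move their timing.

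Expression was measured in cortex of male mice of 30 inbred strains, aged 10 to 11 weeks per the sample labels, that received drinking water with fluoxetine, a serotonin reuptake inhibitor used as an antidepressant, or water without it. The oral dose was 18 mg/kg per day for 21 days in the fluoxetine group and 0 mg/kg in the water group, and mice of both groups went through tail suspension and open field tests. RNA was pooled from 3 mice per array, and each strain gave 1 water array and 1 fluoxetine array, 60 arrays in all. The mice were kept in 12 hours of light from hour 7 and were killed between hours 9 and 13 of the day. The hour of death of each mouse, the order in which strains were processed and the scan dates are not given in the sources used here, so the hour of collection cannot be told apart from strain or treatment for genes that cycle. With 1 pooled array per strain and treatment, the spread of the within-strain difference mixes response, time of death and array error.

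Values are log2 of the deposited intensities, whose array medians ran from 38.8 to 42.8 before the log, with a lowest value of 2.07 on the log2 scale. The tissue label was checked on markers of cortical excitatory neurons: 7 of 8 were tested, and their mean lay between 11.30 and 11.83 in the water arrays and between 11.36 and 11.82 in the fluoxetine arrays. Markers of the choroid plexus, which is not part of cortex, varied more, with a mean of the 2 tested genes from 5.56 to 10.90 over the water arrays. Oligodendrocyte markers had a lower mean with fluoxetine in 20 of 30 strains. The fluoxetine minus water differences of all genes were widest in P/J (SD 0.452) and next widest in DBA/2J (SD 0.348). After the treatment mean of each tested gene was subtracted, each strain's fluoxetine array correlated best with its own water array in 30 of 30 strains.

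The stretch before the annotated gene is shown for Ciart, Per3 and Tef, because these hold the E-box and D-box letters through which the clock is known to act. The sequences are from RefSeq (build GRCm38.p6), are written 5′ to 3′ on the gene's strand, and carry matches to the E-box CACGTG and the D-box TTATGTAA in capitals. The Ciart stretch lies at chr3:95882258-95882478 on the minus strand, that of Per3 at chr4:151044708-151044915 on the minus strand, and that of Tef at chr15:81802423-81802672 on the plus strand.
Ciart: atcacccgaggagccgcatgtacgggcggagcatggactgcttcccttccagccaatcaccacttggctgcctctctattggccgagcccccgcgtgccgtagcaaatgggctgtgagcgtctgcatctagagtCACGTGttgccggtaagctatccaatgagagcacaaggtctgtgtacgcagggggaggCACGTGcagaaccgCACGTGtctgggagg
Per3: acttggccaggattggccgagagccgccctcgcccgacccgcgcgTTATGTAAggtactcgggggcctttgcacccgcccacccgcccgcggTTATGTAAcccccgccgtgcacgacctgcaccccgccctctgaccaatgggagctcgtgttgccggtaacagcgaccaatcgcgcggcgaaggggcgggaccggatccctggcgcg
Tef: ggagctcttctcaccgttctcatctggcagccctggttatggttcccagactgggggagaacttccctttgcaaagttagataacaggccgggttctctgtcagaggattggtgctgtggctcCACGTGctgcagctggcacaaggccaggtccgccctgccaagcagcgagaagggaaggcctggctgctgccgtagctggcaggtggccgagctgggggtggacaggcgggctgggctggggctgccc
Windows from 250 bases before to 50 bases after a start were listed for 9 of the 10 genes, 11 windows in all. Both strands were searched for exact matches to 5 motifs. The E-box was found in 5 of these 11 windows, belonging to 4 genes (Ciart, Bhlhe41, Per1 and Tef), and in 7.15% of the 32851 windows of all genes. Ciart held 3 matches, at positions -116, -58 and -44. Positions are counted from the transcript start on which the window is built, which for Ciart and Per3 lies inside the annotated gene, so that the printed stretch ends before it. The D-box was found for Per3 alone, at positions -205 and -158, and in 0.938% of all windows. The short element AGGTCA, which lies within the longer ROR element (RORE), was found for Per1 and Nr1d2 and in 16.3% of all windows; the longer element was in none of the 11 windows and in 0.219% of all windows. The cyclic AMP element TGACGTCA was found for Hlf, at position -9, and in 1.79% of all windows. A match describes letters in a window and is not evidence that a factor binds there.

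Ciart (also known as Chrono), a repressor that binds the BMAL1 complex, was lower with fluoxetine than with water and was the only one of the genes to pass the test. In the water arrays its log2 intensity was 7.78 in the lowest strain (RIIIS/J), 8.49 at the median and 9.29 in the highest (I/LnJ). In the fluoxetine arrays it was 7.18 in the lowest (P/J), 8.07 at the median and 9.15 in the highest (LP/J). The ranges of both treatments overlapped over most of their width, and it was within strains that fluoxetine was lower, in 24 of 30. The mean log2 difference was -0.39 (SE 0.0776, 95% confidence interval -0.55 to -0.24, n = 30 strains), and the level fell by 23.9% (limma with strain as a block, adjusted p = 0.0308). By strain the log2 difference ran from -1.69 in P/J, -1.36 in DBA/2J and -1.11 in CBA/J to 0.31 in BALB/cJ, with a median of -0.36. The difference was -0.31 without P/J and DBA/2J (limma, adjusted p = 0.0288). The call was lost in 14 of 30 fits that left out 1 strain, with adjusted p between 0.0518 and 0.0699 by limma: in ascending order of p, those without DBA/2J, C57BL/6J, I/LnJ, MRL/MpJ, NZW/LacJ, CE/J, SWR/J, NOD/LtJ, MA/MyJ, NZB/BlNJ, CBA/J, C57BLKS/J, C57BR/cdJ or C58/J. It was also lost with no filter on low values, with all probe sets of a gene averaged, with array weights and with marker scores of other cell types as covariates (limma, adjusted p = 0.0887, 0.0744, 0.0565 and 0.445). Ciart has 1 probe set, so its own values were the same in the first 2 of these fits, with a difference of -0.39. There the call changed through the other genes in the fit. In the 30 fits the log2 difference itself stayed between -0.42 and -0.35. Across all 11886 genes, 7 were called (0.0589%), 5 of them lower with fluoxetine (0.0421%) and 2 higher (0.0168%).

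**Figure D1:**
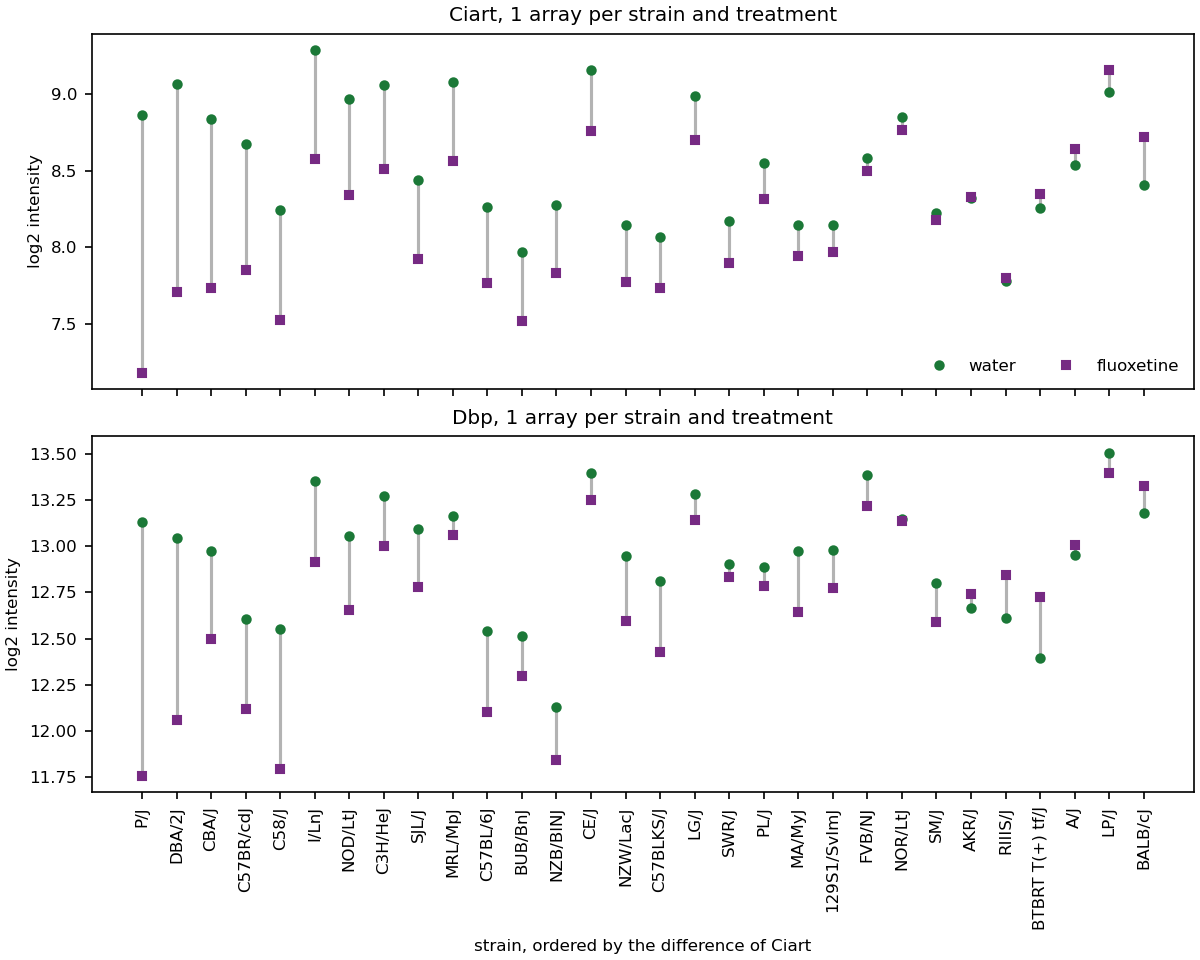
Log2 intensity of Ciart (upper panel) and Dbp (lower panel) in the water array (circle) and the fluoxetine array (square) of each of 30 strains, joined by a line and ordered by the difference of Ciart. The square is below the circle in 24 strains for Ciart and in 25 strains for Dbp, and the longest lines are those of P/J, DBA/2J and CBA/J for Ciart and of P/J, DBA/2J and C58/J for Dbp.

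Dbp, the D-box binding factor that is among the classic output genes of the clock, was lower in 25 of 30 strains without passing the test. Its log2 intensity in water was 12.13 in the lowest strain (NZB/BlNJ), 12.98 at the median and 13.51 in the highest (LP/J). With fluoxetine it was 11.76 in the lowest (P/J), 12.76 at the median and 13.40 in the highest (LP/J). LP/J was thus highest under both treatments, and the ranges overlapped. The mean log2 difference was -0.27 (SE 0.0604, 95% confidence interval -0.39 to -0.14; limma, adjusted p = 0.0764), and by strain it ran from -1.38 in P/J to 0.33 in BTBRT T(+) tf/J. Its other probe set gave a mean difference of -0.30 and was lower in 26 of 30 strains. By limma, Dbp passed the test when BTBRT T(+) tf/J was left out (adjusted p = 0.0393) and when RIIIS/J was left out (adjusted p = 0.0370).

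Tef and Hlf, the relatives of Dbp, differed less between treatments. For Tef the log2 intensity in water was 11.57 in C58/J, 11.89 at the median and 12.22 in CE/J, and with fluoxetine it was 11.47 in C58/J, 11.83 at the median and 12.21 in CE/J. The same strains stood at both ends under both treatments, and the mean difference of Tef was -0.03 (SE 0.0185, 95% confidence interval -0.06 to 0.01; limma, adjusted p = 0.560). Hlf ran from 12.32 in C58/J over a median of 12.69 to 13.12 in CE/J in water, and from 11.57 in P/J over a median of 12.67 to 13.17 in LG/J with fluoxetine. Its mean difference was -0.09 (SE 0.0517, 95% confidence interval -0.20 to 0.01; limma, adjusted p = 0.402), with 14 strains lower and 16 higher. The lowest difference of Hlf was -1.17, in P/J, and without P/J its mean was -0.06. The mean was -0.04 without P/J and DBA/2J and -0.04 with array weights. The other probe set of Hlf gave a mean difference of -0.12, with 19 strains lower and 11 higher. A dimmer Tef probe set, 1438033_at, gave a larger difference of -0.20, lower in 23 of 30 strains, and its strain means hardly followed those of the brightest one (r = 0.0297). Another, 1450184_s_at, gave -0.10, with 15 strains lower and 15 higher, and its strain means had r = 0.425 with those of the brightest one. The probe sets of Tef thus disagreed. With all its probe sets averaged, the mean difference of Tef was -0.11 (limma, adjusted p = 0.140).

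Among the period genes, whose proteins form the core repressor complex with the Cry proteins, Per1 and Per3 had differences below 0 and Per2 did not. Per1 had a log2 intensity of 8.59 (MA/MyJ), 9.00 at the median and 9.69 (I/LnJ) in water, and of 8.39 (CBA/J), 8.93 and 9.71 (LG/J) with fluoxetine. Its mean difference was -0.14 (SE 0.0425, 95% confidence interval -0.23 to -0.05; limma, adjusted p = 0.118), lower in 21 of 30 strains. Per3 had 8.76 (129S1/SvImJ), 9.90 and 10.49 (LP/J) in water and 8.45 (C58/J), 9.86 and 10.54 (DBA/2J) with fluoxetine. These ranges nearly coincided, and the mean difference of Per3 was -0.09 (SE 0.0337, 95% confidence interval -0.16 to -0.02; limma, adjusted p = 0.193), lower in 17 of 30 strains. Per2 had 7.65 (NZB/BlNJ), 8.67 and 9.31 (LP/J) in water and 7.88 (C57BR/cdJ), 8.70 and 9.30 (BALB/cJ) with fluoxetine. The mean difference of Per2 was 0.03 (SE 0.0527, 95% confidence interval -0.08 to 0.14; limma, adjusted p = 0.854), from -0.47 in NZW/LacJ to 0.58 in AKR/J, with 14 strains lower and 16 higher. It lay between 0.0097 and 0.05 when 1 strain was left out, and with marker scores as covariates its sign turned, to -0.0078. The dimmer probe sets of Per2, 1457350_at and 1417603_at, had mean differences of -0.02 and 0.0038. Their strain means followed those of the brightest one only weakly (r = 0.331 and 0.245), so the probe sets of Per2 disagreed on strain levels. Strain levels and correlations of Per2, and those of Tef and Per3, are given below for the brightest probe set alone unless another is named.

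Nr1d1 and Nr1d2 encode REV-ERB alpha and beta, the receptors that repress Arntl. Nr1d2 had a log2 intensity of 12.98 (C58/J), 13.22 at the median and 13.47 (LP/J) in water, and of 12.57 (P/J), 13.13 and 13.32 (CE/J) with fluoxetine. It was lower in 23 of 30 strains, with a mean difference of -0.11 (SE 0.0291, 95% confidence interval -0.17 to -0.05; limma, adjusted p = 0.0807). A dimmer probe set of Nr1d2 gave a mean difference of -0.21, with 19 strains lower and 10 higher. Nr1d1 had 7.95 (129S1/SvImJ), 8.67 and 9.11 (C57BR/cdJ) in water and 7.74 (BUB/BnJ), 8.44 and 9.08 (CE/J) with fluoxetine. It was lower in 19 of 30 strains, with a mean difference of -0.19 (SE 0.0645, 95% confidence interval -0.32 to -0.05; limma, adjusted p = 0.160), and it ran from -1.21 in P/J to 0.41 in 129S1/SvImJ. With array weights the difference of Nr1d1 was -0.12. Both receptors thus lay below 0 on average without passing the test.

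Bhlhe41 (DEC2), an E-box repressor, reached a log2 intensity of 4 in only 2 of 60 arrays and was at the lowest value in 7 arrays. Its levels ran from 2.07 over a median of 2.53 to 4.30 (CBA/J) in water and had the same lowest value and median with fluoxetine. No difference is given for it, since its values lay near the floor and it did not pass the filter.

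Read as a list, 8 of the 9 tested genes had a mean difference below 0, 1 was called lower, and the median over the 9 was -0.11. Over all genes tested, 53.1% had a mean difference below 0 and the median was -0.0029. Before adjustment, 6 of the 9 were lower at p under 0.05, against 8.0% of all genes. The genes share strains, arrays and regulation, so they are not replicates of one another. In bulk cortex, fewer cells of a type and less RNA per cell cannot be told apart.

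By strain, the differences lined up for part of the genes, closest for Ciart and Dbp, while those of Per2 did not follow. Ciart and Dbp were both lower in 24 strains and both higher in 5. At least 6 of the 9 genes were lower in 20 strains, at least 8 in 8 strains, and all 9 in C57BR/cdJ alone. C57BR/cdJ also had the highest share of all tested genes lower of any strain, 60.2%. In the other strains with at least 8 genes lower, that share ran from 42.8% in I/LnJ to 58.3% in FVB/NJ. The median over the 9 genes was -0.67 in P/J, -0.47 in C57BR/cdJ, -0.44 in DBA/2J and -0.40 in C58/J. At the other end it was 0.11 in BALB/cJ, where 1 gene was lower, 0.08 in LG/J and 0.06 in RIIIS/J. P/J, DBA/2J and C58/J were also the strains with the widest differences over all genes, and whether the low values there are particular to these genes was not tested.

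**Figure D2:**
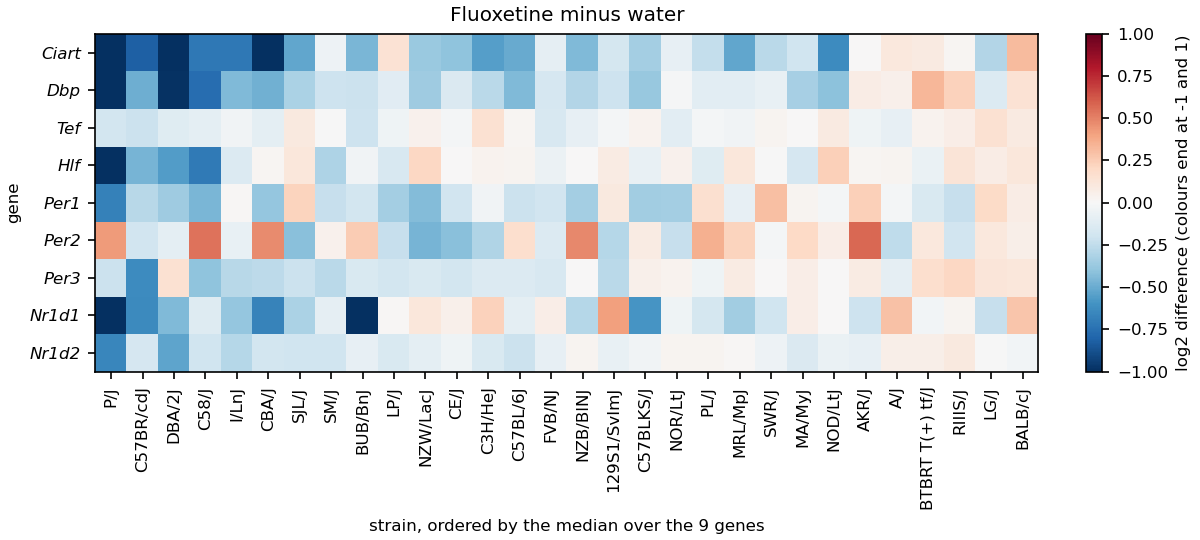
Fluoxetine minus water (log2, colour, ending at -1 and 1) for the 9 tested genes (rows) in 30 strains (columns), ordered from the lowest to the highest median over the genes. Blue (lower with fluoxetine) fills most cells of the left columns, where P/J has a median of -0.67, and BALB/cJ at the far end has a median of 0.11; the row of Per2 does not follow this order.

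The within-strain difference varied more between strains for most of these genes than for most others. The SD of the difference over 30 strains was 0.443 for Ciart, which exceeded that of 95.7% of all genes tested. It was 0.368 for Nr1d1 (92.4% of genes below it), 0.343 for Dbp (90.6%), 0.299 for Per2 (86.4%) and 0.294 for Hlf (85.6%). For Tef it was 0.097, with 13.8% of genes below it, and the median of all genes was 0.158. The SD over strains in fluoxetine was 1.82 times that in water for Hlf, 1.58 times for Nr1d2 and 1.39 times for Dbp, and 0.738 times for Per2. These ratios were not tested.

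Levels also differed between strains whatever the treatment. All 9 tested genes passed the test of strain differences (limma F-test, adjusted p under 0.05), as did 88.3% of all genes, so the count is near the background. The intraclass correlation, the share of variance that both arrays of a strain have in common, was 0.951 for Per3, above that of 97.6% of genes. It was 0.801 for Tef, 0.704 for Per1, 0.677 for Per2 and 0.631 for Dbp, against a median of 0.593 over all genes. Hlf (0.526), Ciart (0.501), Nr1d1 (0.384) and Nr1d2 (0.379) were below that median. The highest strain mean was 3.57 times the lowest for Per3 (DBA/2J over 129S1/SvImJ), 2.76 times for Dbp (LP/J over NZB/BlNJ), 2.60 times for Per2 (BALB/cJ over NZB/BlNJ) and 2.53 times for Ciart (LP/J over BUB/BnJ). It was 1.62 times for Tef (CE/J over C58/J) and 1.43 times for Nr1d2 (LP/J over C58/J). For Per3, Per2 and Tef these values hold for the brightest probe set, whose strain levels the dimmer ones did not all follow. When the 30 strain means were put in order, neighbours lay further apart than the SE of the difference of a pair of strain means in 3 of 29 places for Per3, in 3 for Tef, in 1 for Per1 and nowhere for the other 6 tested genes.

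For Per3 the strain means fell on both sides of a gap of 0.43, with 13 strains from 8.63 to 9.40 and 17 strains from 9.83 to 10.46. The low side held 129S1/SvImJ, C58/J, C57BL/6J, A/J, C57BLKS/J, C57BR/cdJ, PL/J, P/J, RIIIS/J, SWR/J, SJL/J, BALB/cJ and CE/J. Of the other 5 probe sets of Per3, 1460662_at lay from 2.07 to 2.90, at or near the floor, in the same 13 strains, so that its level there is only a bound, and from 6.61 to 7.78 in the other 17. The probe set 1421086_at lay below the log2 of 4 used as the filter in those 13 strains (3.18 to 3.74) and from 4.01 to 5.08 in the rest. Their strain means correlated with those of the probe set used at r = 0.939 and r = 0.885. The other 3, 1458176_at, 1442243_at and 1441445_at, did not follow it (r = 0.0871, 0.120 and -0.154 over 30 strains), and 1458176_at ran only from 8.69 to 9.53. The probe sets of Per3 therefore disagree on strain levels. For fluoxetine minus water, the 3 that did not follow had mean differences of -0.14, -0.10 and -0.12 and were lower in 25, 20 and 21 of 30 strains. The mean difference was -0.10 for 1460662_at, lower in 15 strains and higher in 12, and 0.03 for 1421086_at, lower in 12 and higher in 18.

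**Figure D3:**
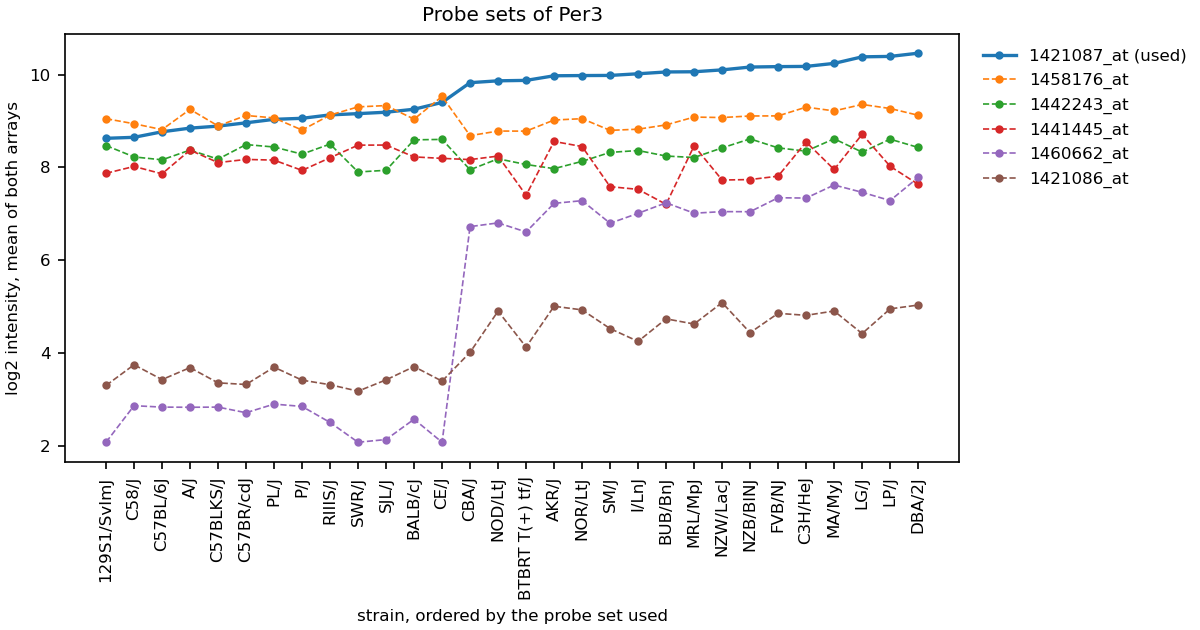
Strain mean of log2 intensity (average of the water and the fluoxetine array) for the 6 probe sets of Per3 in 30 strains, ordered by the probe set used (thick line). The thick line steps from 9.40 to 9.83 after the first 13 strains, 1460662_at steps from 2.90 or less, at or near the floor, to 6.61 or more at the same place, and 1458176_at stays between 8.69 and 9.53.

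The genes were then compared with each other across strains, in 45 pairs for the levels in water and 45 for the differences, with p-values from 100000 permutations adjusted over all 90 tests. In each measure 9 of the 45 pairs involve Bhlhe41, whose values lie near the floor, and 0 of these were called by the permutation test. Inbred strains share ancestry, so they are not fully independent, and genes on shared arrays also share array error. For the differences, 19 pairs were called by Pearson's r, 18 of them positive, and 12 by Spearman's rho. An r as far from 0 as in these pairs was found in 11.0% of all pairs of tested genes. An r of at least 0.5 was reached by 15 of the 36 pairs of tested genes in the list (33.3% of all 45), against 2.94% of all pairs of tested genes. Of these 15, 7 kept an r of at least 0.5 without the 2 strains farthest from the median of the first gene of the pair.

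Ciart and Dbp had the highest r of the 45 pairs: their differences had r = 0.902 (permutation p = 1e-05, the smallest these permutations can give, adjusted p = 0.00018) and rho = 0.851 (permutation p = 1e-05, adjusted p = 0.0003). Without P/J and DBA/2J, r was 0.802. Dbp and Nr1d2 had r = 0.883 (permutation p = 1e-05, adjusted p = 0.00018) and rho = 0.770 (permutation p = 1e-05, adjusted p = 0.0003), with r = 0.724 without these strains. Ciart and Nr1d1 had r = 0.689 (permutation p = 6e-05, adjusted p = 0.000675) and rho = 0.624 (permutation p = 0.00035, adjusted p = 0.0035), with r = 0.562 without them. Some pairs rested on those strains. Ciart and Hlf had r = 0.613 (permutation p = 0.00112, adjusted p = 0.00593) but rho = 0.221 (permutation p = 0.239, adjusted p = 0.341), and r = 0.201 without P/J and DBA/2J. With both strains left out of all pairs, 10 pairs were called, 6 of them among the 19, and with P/J alone left out, 9 were called. Per2 was in the 1 negative pair: its differences and those of Nr1d1 had r = -0.46 (permutation p = 0.00945, adjusted p = 0.0266) and rho = -0.51 (permutation p = 0.0043, adjusted p = 0.0187), and r = -0.47 without AKR/J and NZW/LacJ.

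Levels in water were related too, in 20 of 45 pairs by Pearson's r (19 positive) and 16 by Spearman's rho, where an r as far from 0 was found in 11.4% of all pairs of tested genes. An r of at least 0.5 was reached by 15 pairs, against 4.29% of all pairs of tested genes, and 11 of the 15 kept it without 2 strains. Dbp and Nr1d2 had r = 0.736 (permutation p = 1e-05, adjusted p = 0.00018) and rho = 0.806 (permutation p = 1e-05, adjusted p = 0.0003), with r = 0.855 without NZB/BlNJ and BTBRT T(+) tf/J. Ciart and Dbp had r = 0.689 (permutation p = 4e-05, adjusted p = 0.000514) and rho = 0.701 (permutation p = 2e-05, adjusted p = 0.00045), with r = 0.653 without I/LnJ and RIIIS/J. Dbp and Per2 had r = 0.663 (permutation p = 0.0001, adjusted p = 0.0009) and rho = 0.581 (permutation p = 0.00088, adjusted p = 0.00566), with r = 0.542 without NZB/BlNJ and BTBRT T(+) tf/J. Per2 and Nr1d1 were the negative pair, at r = -0.45 (permutation p = 0.0117, adjusted p = 0.0309) and rho = -0.42 (permutation p = 0.0224, adjusted p = 0.0629), with r = -0.32 without NZB/BlNJ and AKR/J. Per3 was called with Tef, Per1, Nr1d1 and Nr1d2, and these pairs rest on its brightest probe set, whose strain levels several of its other probe sets did not follow. When all probe sets of a gene were averaged, 12 pairs were called in water, 8 of them among the 20.

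**Figure D4:**
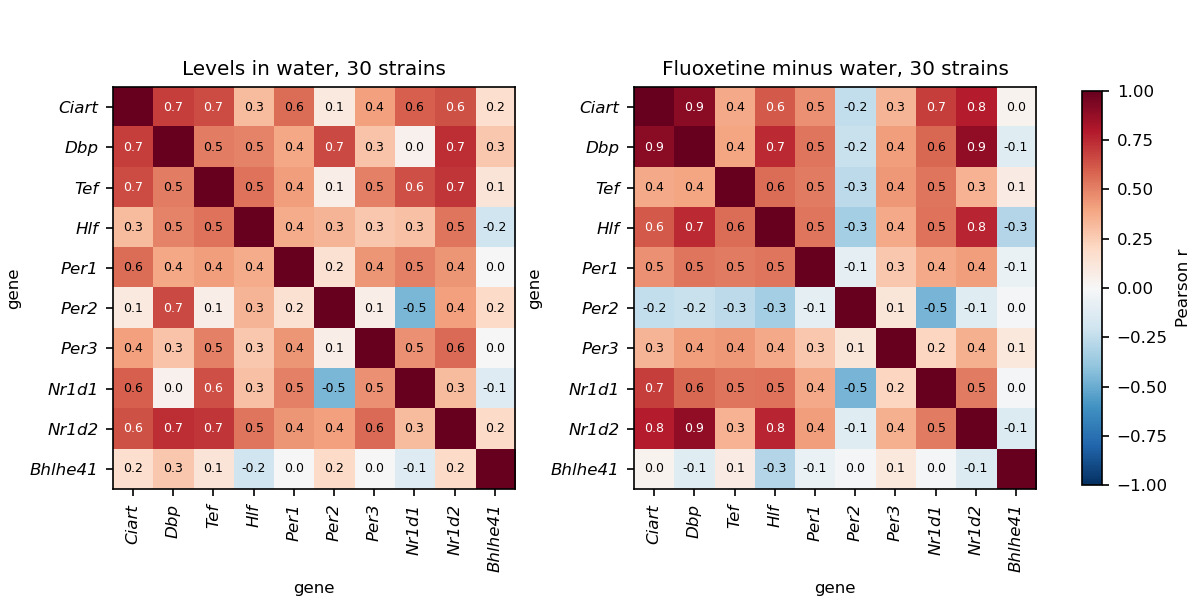
Pearson's r over 30 strains between each pair of the 10 genes, for levels in water (left) and for fluoxetine minus water (right), with r printed in each cell. Red cells join Ciart, Dbp and Nr1d2 in both panels, up to 0.902 for the differences of Ciart and Dbp, and the cell of Per2 and Nr1d1 is blue in both (-0.45 and -0.46).

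Of 18 other clock genes, 16 had a probe set and 15 were tested; 0 were called for fluoxetine by limma, with 2 lower and 1 higher at unadjusted p under 0.05, and 6 lower and 9 higher in all (median 0.02). The activators stood near 0: the mean log2 difference was 0.01 (SE 0.0385) for Arntl, 0.05 (SE 0.0212) for Clock and 0.04 (SE 0.0409) for Npas2, with adjusted p of 0.915, 0.263 and 0.744 by limma. Clock was higher in 22 of 30 strains. The repressors Cry1 and Cry2 had 0.04 and -0.06, the E-box repressor Bhlhe40 had -0.03, and Nfil3, which competes with Dbp for D-boxes, had 0.12 (limma, adjusted p = 0.673, 0.302, 0.731 and 0.374).

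Across strains the levels of the activator Arntl in water, which ran from 9.35 in LP/J to 10.23 in BUB/BnJ, were high where Ciart was low. Ciart and Arntl had r = -0.63 (permutation p = 0.00024, adjusted p = 0.00378 over 126 tests of the 9 genes against 7 other clock genes in both measures) and rho = -0.66 (permutation p = 0.0001, adjusted p = 0.0058). Without I/LnJ and RIIIS/J, r was -0.67. Dbp and Nr1d2 also had a negative r with Arntl in water, -0.56 and -0.58 (permutation p = 0.00143 and 0.00076, adjusted p = 0.00901 and 0.00638), with rho = -0.61 and -0.50 (permutation p = 0.0005 and 0.00533, adjusted p = 0.00787 and 0.0395) and r = -0.66 and -0.43 without the farthest 2 strains. The differences ran otherwise: for Ciart and Arntl r was 0.336 (adjusted permutation p = 0.154), rho was 0.0407, and r without P/J and DBA/2J was -0.11. Positive r with Arntl were called for Hlf, at r = 0.708 (permutation p = 3e-05, adjusted p = 0.00126) with rho = 0.549 (permutation p = 0.00171, adjusted p = 0.017) and r = 0.485 without the farthest 2 strains, and for Nr1d2, at r = 0.459 (permutation p = 0.0109, adjusted p = 0.0445) with rho = 0.175 (permutation p = 0.356, adjusted p = 0.555) and r = -0.0053 without them. Whether the r of the levels and of the differences differ was not tested.

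**Figure D5:**
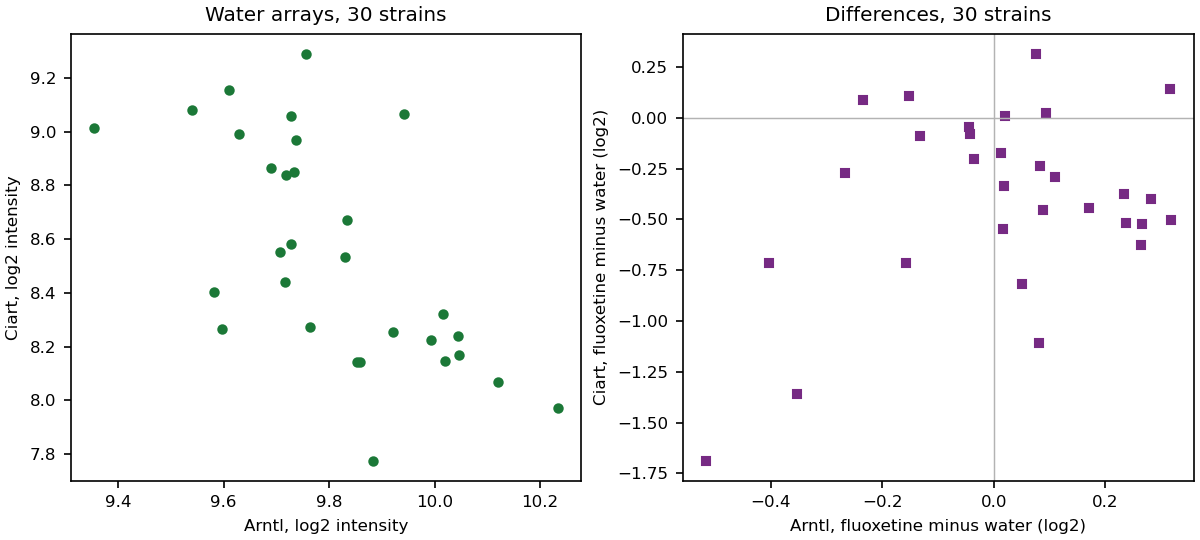
Ciart against Arntl over 30 strains, as log2 intensity in the water arrays (left, circles) and as fluoxetine minus water (right, squares). The water levels fall from upper left to lower right (r = -0.63), while the differences show no such slope (r = 0.336), with P/J and DBA/2J at the lower left.

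Of these 126 tests, 14 of 63 were called for levels in water (7 positive, 7 negative) and 18 of 63 for differences (11 positive, 7 negative). An r as far from 0 as in the called pairs was found in 9.6% of all pairs of tested genes in water and in 8.22% for the differences. The differences of Cry2 gave 7 of these calls, all positive. The highest was with Hlf (r = 0.804, permutation p = 1e-05, adjusted p = 0.00063, rho = 0.573 with permutation p = 0.00128, adjusted p = 0.0147, and r = 0.596 without 2 strains). With Ciart, Dbp, Tef, Per1, Nr1d1 and Nr1d2, Cry2 had r of 0.635, 0.658, 0.540, 0.580, 0.582 and 0.675 (adjusted permutation p from 0.00378 to 0.0108). Of these 6, Per1 alone was also called by rho (0.498, adjusted permutation p = 0.0417), and without 2 strains r ran from 0.351 for Dbp to 0.531 for Tef. Per2 followed Cry1 in water (r = 0.735, permutation p = 1e-05, adjusted p = 0.00063, rho = 0.688 with permutation p = 3e-05, adjusted p = 0.00378, and r = 0.704 without 2 strains) and in the differences (r = 0.563, permutation p = 0.00138, adjusted p = 0.00901, rho = 0.530 with permutation p = 0.00262, adjusted p = 0.022, and r = 0.528 without 2 strains). Nr1d1 ran against Cry1 in water (r = -0.63, permutation p = 0.00019, adjusted p = 0.00378, rho = -0.62 with permutation p = 0.00035, adjusted p = 0.00735, and r = -0.52 without 2 strains). Their differences did so as well (r = -0.59, permutation p = 0.00049, adjusted p = 0.00561, rho = -0.64 with permutation p = 0.00016, adjusted p = 0.0058, and r = -0.56 without 2 strains). Tef and Hlf also ran against Cry1 in the differences (r = -0.60 and -0.46, adjusted permutation p = 0.00621 and 0.0445). For Nr1d1 and Arntl, r was -0.14 in water and 0.249 in the differences (adjusted permutation p = 0.595 and 0.299).

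Lists of further clock-controlled genes, of activity-induced genes and of glucocorticoid targets were read in the same fit. Of 11 tested clock-controlled genes 5 were lower and 6 higher (median 0.02), with 2 lower and 4 higher at unadjusted p under 0.05. Of 11 activity-induced genes 6 were lower (median -0.0099), with 2 lower and 0 higher at unadjusted p under 0.05, and of 9 glucocorticoid targets 5 were lower (median -0.02), with 1 lower and 0 higher. In these 3 lists 0 genes were called by limma.

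The genes whose differences resembled those of Ciart most among 11877 genes outside the list were Usp2 (r = 0.836), a ubiquitin protease that is known as a clock output, Lrtm2 (0.813), Rasgef1b (0.812), Akap7 (0.781) and Tbc1d30 (0.779), over 30 strains. Usp2 itself had a mean difference of -0.14, lower in 22 of 30 strains (limma, adjusted p = 0.0764). The lowest r with Ciart were those of Adamts18 (-0.84), Tspan31 (-0.81), 5031439G07Rik (-0.81), Hsph1 (-0.79) and Fnbp1l (-0.78). For Dbp the highest were Itga4 (0.867), Cdc42ep3 (0.846), Gm12371 (0.835), Gucy1a1 (0.827) and Nectin3 (0.818), and the lowest were Arpc5 (-0.86), Adamts18 (-0.84), Meaf6 (-0.83), Fnbp1l (-0.83) and Hcfc2 (-0.82). All r with genes outside the list, here and below, are extremes of a search and were not tested. How far those of the differences rest on P/J and DBA/2J, the strains with the widest differences over all genes, was not tested. Over all 11885 other tested genes, Dbp had the highest r of all with Ciart, and Ciart and Nr1d2 had the highest and the next highest with Dbp. For levels in water, Hrh3, the histamine H3 receptor, had the highest r with Ciart (0.789), and Nr1d2 had the highest with Dbp. Outside the list, after Hrh3 came Pafah1b1 and Sec14l1 (both 0.698), 6430548M08Rik (0.676) and Dohh (0.671), and the lowest with Ciart were C1galt1c1 (-0.73), Prr5l (-0.66), Poli (-0.65), Galnt9 (-0.65) and Dnajc24 (-0.64). The highest outside the list with Dbp in water were Pyroxd2 (0.686), Srpk2 (0.672), Srp72 (0.651), Ppig (0.641) and Pradc1 (0.63), and the lowest were Rnf113a2 (-0.69), Bcar3 (-0.65), Mapt (-0.64), Pura (-0.63) and Gadd45gip1 (-0.63).

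Markers of other cell types were measured beside these genes. Of 10 tested oligodendrocyte markers 10 had a mean difference below 0 (median -0.22), 8 of them at unadjusted p under 0.05 and 0 called by limma. Their mean ran from 9.80 to 10.90 in the water arrays and from 9.07 to 10.93 in the fluoxetine arrays, and none was at the lowest value in any array. Of 8 precursor markers 7 were lower (median -0.07), and of 9 endothelial markers 7 were lower (median -0.04). Of 8 astrocyte markers 6 were higher (median 0.03), with a mean from 11.94 to 12.46 in water and from 12.15 to 12.85 with fluoxetine, and of 8 microglial markers 6 were higher (median 0.04), with a mean from 8.71 to 9.56 and from 8.80 to 10.15. Of the lists of neighbouring tissues, 3 of 8 tested genes were lower for meninges (median 0.06), 2 of 2 for choroid plexus (-0.36), 3 of 5 for striatum (-0.02), 1 of 2 for hippocampus (0.10) and 4 of 5 for thalamus (-0.02). In all these marker lists 0 genes were called by limma; at unadjusted p under 0.05, 3 precursor, 3 endothelial, 2 striatal and 1 meningeal markers were lower and 2 astrocyte markers and 1 each of the microglial, striatal, meningeal and hippocampal markers were higher. With the means of the oligodendrocyte, endothelial, meningeal and striatal lists as covariates, the difference of Ciart was -0.40 with a wider SE of 0.104 (limma, adjusted p = 0.445). In the same fit the differences of Hlf, Tef, Per3 and Nr1d2 were -0.0015, -0.0037, -0.05 and -0.08.

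Over strains, the differences of Dbp and of the astrocyte list mean had r = -0.66 (permutation p = 0.00075, adjusted p = 0.039 over 52 tests of Ciart and Dbp against 13 lists in both measures), but rho = -0.23 (permutation p = 0.228) and r = -0.35 without P/J and DBA/2J. For Ciart and the astrocyte list r was -0.57 (permutation p = 0.00279, adjusted p = 0.0634) with rho = -0.20 (permutation p = 0.28), and -0.22 without these strains. For the microglial list r was -0.49 with Ciart and -0.56 with Dbp (adjusted permutation p = 0.113 and 0.0634). There rho was -0.03 and -0.10, and r was 0.138 and 0.0526 without these strains. For the activity-induced list r was -0.34 with Ciart and -0.38 with Dbp (adjusted permutation p = 0.258 and 0.234). Its rho was -0.48 and -0.36 (permutation p = 0.00751 and 0.0542), and r was -0.41 and -0.47 without these strains. The difference of the oligodendrocyte mean had r = 0.160 with Ciart (permutation p = 0.399, adjusted p = 0.670; rho = 0.0861, permutation p = 0.650) and 0.295 with Dbp (permutation p = 0.114, adjusted p = 0.358; rho = 0.271, permutation p = 0.149). Without P/J and DBA/2J these were -0.03 and 0.150. The part of glial content in the differences of the clock genes was not tested beyond these values.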

How the data were processed

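Each of 60 arrays holds RNA pooled from 3 mice, per the labels. The deposited values are linear intensity; the submitters' processing notes name GCRMA and no version. On each array 26.4% to 28.1% of probe sets shared the lowest value, so genes at that value have no order there. The number of arrays limits the precision.

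Of 45101 probe sets, 64 controls were left out, 34945 had 1 gene in the annotation of the platform, 932 had several and 9160 had none. Values were put on the log2 scale, the brightest probe set stood for each gene, and genes with log2 of at least 4 in at least 6 arrays were tested. Fluoxetine minus water was fitted with limma 3.58.1 (R 4.3.3) with strain as a block, since strain pairs the arrays. To check the pairing, the treatment mean of each tested gene was subtracted and the remaining deviations were correlated. In 30 of 30 strains the deviations of the fluoxetine array correlated best with those of its own water array (r from 0.519 to 0.855). P-values were adjusted by Benjamini-Hochberg over all genes tested, at 0.05. The fit was tested on simulated data. Correlations used permutation tests in Python (SciPy 1.17.1), and promoter windows and names came from RefSeq tables.

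The genes, the gene lists and the tests were chosen with earlier results of these data known. Named genes were the 10 genes, 7 other clock genes, genes of further lists past the test, and the 5 genes with the highest and the 5 with the lowest r with Ciart and Dbp. Alternatives covered the pseudocount, the filter, the probe sets, the normalization, array weights, the block, marker covariates and each strain left out. Serum fluoxetine and behaviour were not analysed here.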

Additional observations from a re-analysis of the deposited data

How the results depend on the processing

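The call of Ciart depended on settings. The number of the 9 genes called for fluoxetine was 1, and it became 0 with no filter on low values (Ciart, limma adjusted p = 0.0887), with all probe sets of a gene averaged (0.0744), with array weights (0.0565, difference -0.29) and with marker scores as covariates (0.445). With no filter and with averaging the difference of Ciart, which has 1 probe set, stayed at -0.39. The number called was also 0 in the fit with no replicate block, which ignores the pairing by strain (0.9999). It stayed 1 with log2(intensity + 16), mean log2 of at least 6, quantile normalization, eBayes with trend and robust, and without P/J and DBA/2J, a setting chosen after seeing the data. Leaving out 1 strain gave 0 to 2 calls. The difference of Per2 reversed to -0.0078 with marker scores (adjusted p = 0.988 by limma); for the other 8 genes the direction held in 10 alternatives and 30 omissions each.

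Strain differences were called for 9 genes, for 9 or 10 in the alternatives and for 8 or 9 when 1 strain was left out. The 20 pairs called in water became 12 with all probe sets of a gene averaged, and ran from 17 to 23 when 1 strain was left out. The 19 pairs called for differences became 10 without P/J and DBA/2J, and ran from 9 (without P/J) to 22 when 1 strain was left out. Both arrays of a strain are single pools, and the floor limits what dim probe sets can show.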
